A study of Mus musculus with 6 samples.

Results

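The genes of the cell cycle were examined in microglia isolated after acute ischemic stroke (AIS), as a set of 46 genes that drive or mark proliferation. The set was found by matching the accession of each probe on the array to a RefSeq gene symbol, and all 46 genes had a probe among the 23462 named genes of the array. Of these members, 45 were tested among 18222 tested genes, because Ccnd1 kept too few unmarked spots. Microglia, the macrophages that live in brain tissue, were purified here with magnetic beads against their surface receptor P2RY12. Both groups of mice carried a PGC-1α transgene joined to eGFP that only Cre recombinase can switch on, were given tamoxifen and underwent transient occlusion of the middle cerebral artery. The control mice, PGC-1αf/f, had no Cre. In mPGC-1α mice an inducible Cre, driven by Cx3cr1, was present as well. Per the methods, stroke followed tamoxifen after an interval meant to restrict overexpression of PGC-1α, a coactivator of mitochondrial genes, to microglia and spare macrophages. There were 3 arrays of PGC-1αf/f samples and 3 arrays of mPGC-1α samples, all labelled as male and 10 weeks old, and no label says whether each came from a separate animal. P values therefore measure the spread between these samples, which may in part be technical.

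A cell enters the cycle when D-type cyclins with Cdk4, and then cyclin E with Cdk2, release the E2F factors from the retinoblastoma protein. E2F targets load the Mcm helicase on DNA and supply nucleotides for S phase, and genes of mitosis follow later under B-Myb, Foxm1 and the DREAM complex. Cyclin A, cyclin B and Cdk1 then drive mitosis until the anaphase-promoting complex (APC/C) degrades the cyclins, while the inhibitors p21 and p27 hold the cycle back. Microglia are known to renew slowly in the healthy brain and to proliferate after ischemia.

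The promoters of several members are shown for the short elements that recur in them. Members with and without such elements were low on 1 array, and a part of the elements in this was not tested. Each line gives the 120 bases before a RefSeq transcription start, from the 5′ to the 3′ end on the strand of the gene (assembly GRCm38.p6). Capitals mark matches on either strand to the CHR element (TTTGAA, read on the other strand as TTCAAA), the CCAAT box (CCAAT or ATTGG) and E2F sites (TTTGGCGC, TTTCCCGC or TTTCGCGC and their reverse complements). The segments are those of Cdk1 (chr10:69352913-69353032, minus strand), Ube2c (chr2:164769809-164769928, plus strand), Top2a (chr11:99024190-99024309, minus strand), Kif11 (chr19:37376262-37376381, plus strand), Cdc20 (chr4:118437344-118437463, minus strand) and Mcm6 (chr1:128359706-128359825, minus strand).
Cdk1: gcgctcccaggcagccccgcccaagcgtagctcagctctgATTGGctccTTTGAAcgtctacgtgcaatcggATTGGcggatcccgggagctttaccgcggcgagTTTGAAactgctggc
Ube2c: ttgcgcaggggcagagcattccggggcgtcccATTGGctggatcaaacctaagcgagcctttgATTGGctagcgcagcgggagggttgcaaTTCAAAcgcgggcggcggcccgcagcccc
Top2a: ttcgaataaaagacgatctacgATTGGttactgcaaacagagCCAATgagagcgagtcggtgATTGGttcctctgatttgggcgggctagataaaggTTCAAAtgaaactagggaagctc
Kif11: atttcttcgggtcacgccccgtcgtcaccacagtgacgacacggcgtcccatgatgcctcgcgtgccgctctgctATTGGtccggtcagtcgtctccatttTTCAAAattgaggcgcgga
Cdc20: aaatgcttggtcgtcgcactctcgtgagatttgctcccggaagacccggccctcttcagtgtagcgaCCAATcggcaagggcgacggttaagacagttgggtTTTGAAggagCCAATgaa
Mcm6: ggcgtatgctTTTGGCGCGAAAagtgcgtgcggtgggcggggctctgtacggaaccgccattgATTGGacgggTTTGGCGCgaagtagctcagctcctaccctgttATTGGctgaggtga
The Cdk1 segment held 2 CHR matches and 2 CCAAT matches. The Ube2c segment held 1 CHR match and 2 CCAAT matches, as did that of Cdc20. Top2a had 1 CHR and 3 CCAAT matches, and Kif11 had 1 of each. In Mcm6 there were 3 E2F matches, and the first capital run is 2 of them that overlap.

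Promoter windows of 300 bases, most of them upstream of the start, were given for 37 of the 46 members and for 27025 genes in all. A CHR match lay in the windows of 15 of the 37 members (40.5%) and of 20.2% of all genes. A CCAAT match lay in 28 of them (75.7%) and in 41.1% of all genes. An E2F match lay in 7 of them (18.9%) and in 2.12% of all genes. CHR and CCAAT matches lay together in the windows of 15 members (40.5%) and of 7.97% of all genes. The motifs were not spread evenly over the roles. Among genes of chromosomes and spindle 7 of 11 windows held a CHR match and 0 held an E2F match, whereas among genes of replication 2 of 8 held a CHR match and 5 held an E2F match. Such matches are descriptions of the letters only and are not evidence that a factor binds there.

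Each array had 59305 spots that were not controls, and between 71.0% and 86.5% of them were well above background. Outlier marks were most frequent on array 3 of both groups, which shared slide 2, with 3010 and 4931 spots against 549 to 1094 on the slide of the other arrays. The brighter Ppargc1a probe, for the gene meant to be overexpressed, gave log2 levels of -1.05, -0.55 and -0.53 in PGC-1αf/f and of -1.08, -0.86 and -1.12 in mPGC-1α, in the order of their arrays, so no rise was seen. Whether these probes read the transgene is not given in the sources used here. All samples were labelled male, but PGC-1αf/f array 2 alone read so, with Xist at -4.83 and with Ddx3y, both Eif2s3y probes, Uty and 2 of 3 Kdm5d probes, all Y-linked, well above background. The other 5 arrays went against the label, with Xist between -0.57 and -0.11. On them these Y-linked probes were not well above background, except 1 Kdm5d probe on all 5 (that probe read -5.01 to -3.09 over the 6 arrays) and 1 Eif2s3y probe on PGC-1αf/f array 1. P2ry12 read 3.94 to 4.40 and Tmem119 5.15 to 5.52 over the arrays. Cx3cr1, the gene whose promoter drives Cre, read 4.19, 3.66 and 4.11 in PGC-1αf/f and 2.79, 2.36 and 3.13 in mPGC-1α by its tested probe. These groups did not overlap, and the difference was -1.23 (SE 0.24; limma adjusted p = 0.684). Its other probe, which was not tested, read 3.96, 4.41 and 3.75 and then 3.57, 3.67 and 3.90, with overlap. Levels throughout are log2 ratios of the processed signal to the array's 75th percentile, so that 0 is the level of that percentile, and 1 probe stands for each gene, the brightest tested one.

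The cell cycle genes were lower on average in mPGC-1α than in PGC-1αf/f microglia, but the difference rested on 1 of the 3 mPGC-1α arrays and no gene passed the test. The median log2 difference, mPGC-1α minus PGC-1αf/f, was -0.37 over the 45 tested members and 0.11 over all tested genes. Of the members, 37 were lower in mPGC-1α and 8 higher, whereas 36% of all genes were lower. In bulk samples, fewer proliferating cells and less of these RNAs per cell cannot be told apart. By limma with Benjamini-Hochberg adjustment over 40745 probes, 0 members and 0% of all probes passed 0.05. An unadjusted p below 0.05 was reached by 3 members, Cdca8, Cdc45 and Ccnb1, all lower in mPGC-1α, which is 6.67% of the members beside 6.09% of all genes. No overlap between the groups was seen for 4 of the 41 members measured on all 6 arrays (Ccne2, Ccna2, Ccnb1 and Cdca8), or 9.76%, beside 11.9% of all genes. Both shares lay near those of all genes counted in either direction. All of these members were lower in mPGC-1α. Of all genes, 488 of 18222 were lower at that p and 558 of 16191 were lower without overlap, which are smaller shares. The replicate number was also used as a block, although no label says that arrays of equal number were paired. In that fit 11 members had an unadjusted p below 0.05, 10 of them lower. Of all genes 10.3% had one, counted in either direction. Adjusted p values from that blocked limma fit were below 0.05 for 0 members and for 0.00549% of all genes.

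The members moved together most on mPGC-1α array 1. The median over members of the log2 level minus the gene's own mean was -0.09, 0.60 and 0.13 on the PGC-1αf/f arrays, and -0.91, 0.36 and 0.13 in mPGC-1α, again in array order. Over all genes the same medians lay between -0.20 and 0.13, and that of mPGC-1α array 1 was 0.06. Of the 41 members measured on every array, 31 (75.6%) were lowest on mPGC-1α array 1, beside 13.2% of all genes. For 18 members (43.9%) this array lay below the other 5 by more than their whole range, beside 2.19% of all genes. On PGC-1αf/f array 2, by contrast, 22 members (53.7%) had their highest level, beside 31.8% of all genes. Among members measured on every array, those with both a CHR and a CCAAT match were lowest on mPGC-1α array 1 in 12 of 13 cases, with a median of -1.81 against the mean of the other arrays. Members with a promoter window but without both motifs were lowest there in 12 of 20 cases, with a median of -0.68. Most members with both motifs were genes of mitosis, of chromosomes and spindle or of the APC/C, so motif and role cannot be told apart. A part of the motifs was not tested.

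**Figure D1:**
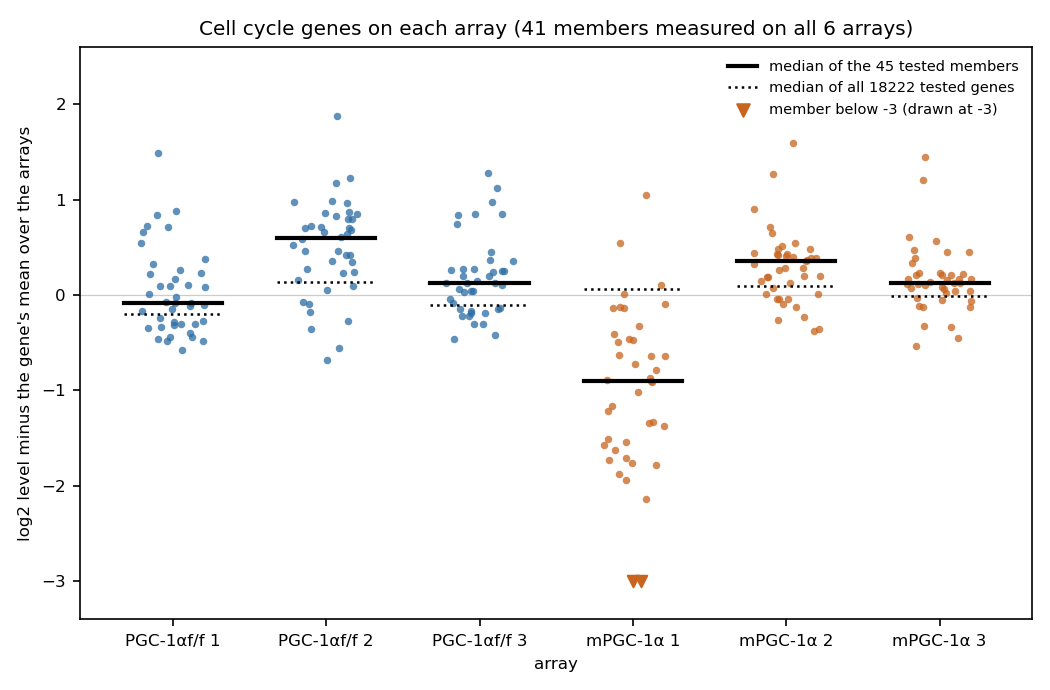
Log2 level of each cell cycle gene minus its own mean over the arrays (y axis) on each of the 6 arrays (x axis), with PGC-1αf/f in blue and mPGC-1α in orange. Points are the 41 members measured on all 6 arrays, solid bars are medians of the 45 tested members and dotted bars are medians of all 18222 tested genes. The members' median falls to -0.91 on mPGC-1α array 1 and reaches 0.60 on PGC-1αf/f array 2.

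Without mPGC-1α array 1 the median difference over the members was 0.06, with 28 higher and 17 lower, and that over all genes was 0.11. Without PGC-1αf/f array 2 it was -0.23, with 28 lower. Within slide 1, which held arrays 1 and 2 of each group, the median was -0.55 and 38 of 44 members were lower. Within slide 2, with 1 array of each group, it was 0.08 and 19 of 42 were lower. The direction of the set thus turned with a single array. Between arrays of the same replicate number the median difference was -1.01 for number 1, -0.23 for number 2 and 0.08 for number 3.

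**Figure D2:**
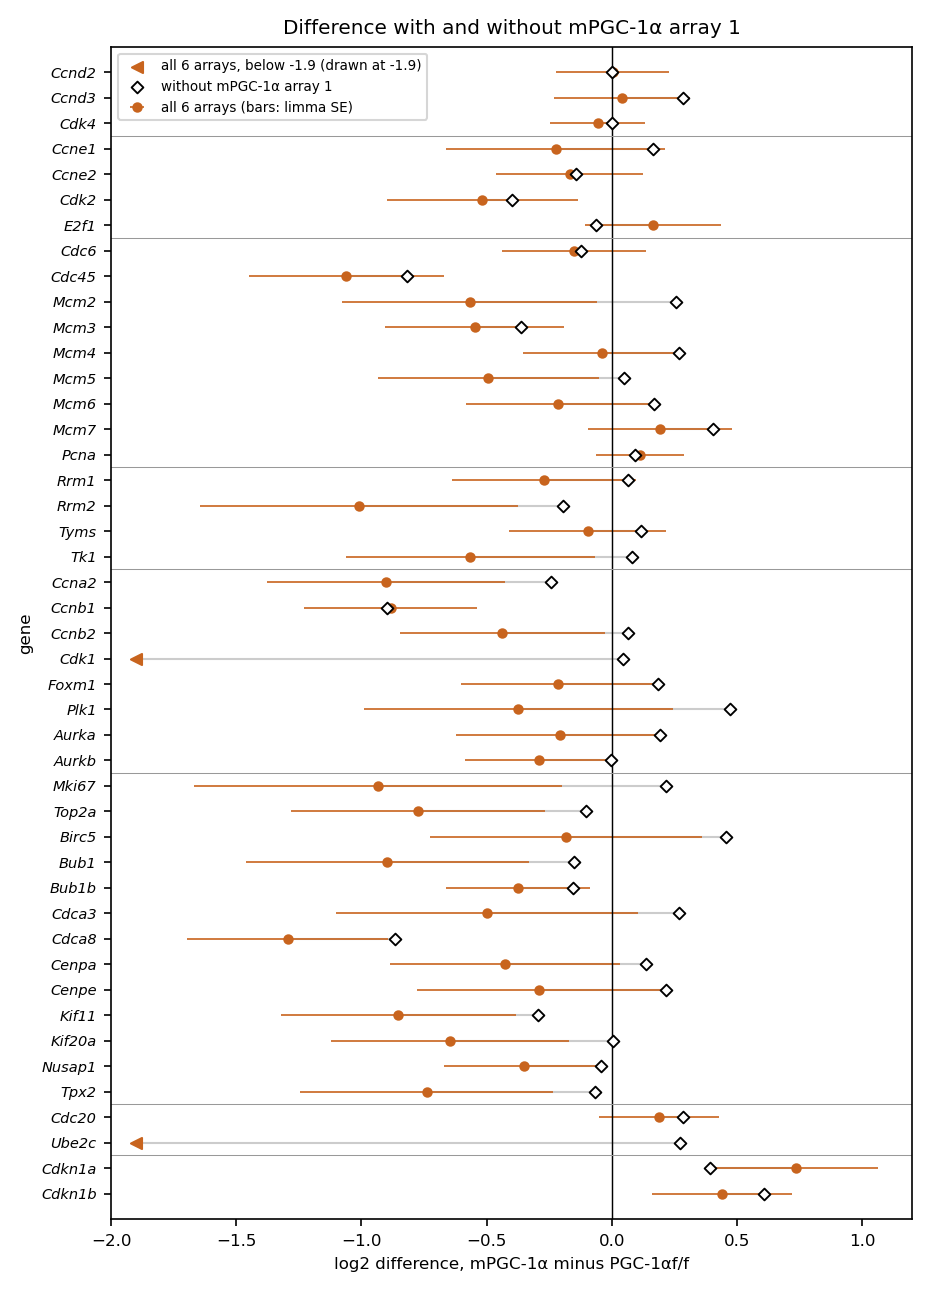
Log2 difference, mPGC-1α minus PGC-1αf/f (x axis), of the 45 tested members (y axis, ordered by role), with orange points and limma standard errors for all 6 arrays and open diamonds without mPGC-1α array 1. Cdk1 and Ube2c lie beyond the axis at -2.63 and -2.26. Most diamonds lie near 0, while Ccnb1, Cdca8 and Cdc45 stay at -0.90, -0.86 and -0.82.

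The D-type cyclins and Cdk4, which open the cycle, hardly differed between the groups in the mean. Ccnd2 (cyclin D2) had levels of 1.17, 1.88 and 1.31 in PGC-1αf/f and 1.46, 1.41 and 1.49 in mPGC-1α, a difference of 0.00 (limma SE 0.23). Ccnd3 (cyclin D3) had levels of 2.19, 2.81 and 2.31 in PGC-1αf/f and 1.99, 2.53 and 2.91 in mPGC-1α, a difference of 0.04 (SE 0.27) that was 0.28 without mPGC-1α array 1. Cdk4, their kinase, had levels of 2.55, 2.36 and 2.78 and then 2.39, 2.49 and 2.64, a difference of -0.06 (SE 0.19). The groups overlapped for all 3 genes. Ccnd1 (cyclin D1) was not tested because its spot was marked as an outlier on mPGC-1α arrays 1 and 3. With marked spots kept it read 2.68, 2.70 and 2.01 in PGC-1αf/f and 2.82, 2.35 and 2.64 in mPGC-1α, a difference of 0.14 (SE 0.24; limma adjusted p = 0.909).

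Of the genes that commit a cell to S phase, Ccne1, Ccne2 and Cdk2 were lower in the mean of mPGC-1α and E2f1 was higher, none past the test. Ccne1 (cyclin E1) had levels of -2.79, -1.44 and -2.35 in PGC-1αf/f and -3.20, -1.92 and -2.14 in mPGC-1α, a difference of -0.22 (SE 0.44) that was 0.17 without mPGC-1α array 1. Ccne2 (cyclin E2) was dim on every array, at -4.30, -4.35 and -4.29 in PGC-1αf/f and -4.53, -4.38 and -4.53 in mPGC-1α. Its groups did not overlap, and the difference was -0.17 (SE 0.29; exact permutation p = 0.1, the smallest that 3 against 3 arrays can give; limma adjusted p = 0.915). Cdk2, the partner kinase of cyclin E, had levels of 0.68, -0.71 and 0.72 in PGC-1αf/f and -0.52, -0.38 and 0.05 in mPGC-1α, a difference of -0.52 (SE 0.38). PGC-1αf/f array 2 was its lowest value, unlike most members. E2f1, an activating E2F factor, had levels of -0.47, 0.07 and -0.33 and then 0.38, -0.39 and -0.22, a difference of 0.17 (SE 0.27), and was highest on mPGC-1α array 1, without which the difference was -0.06.

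Among the 9 genes of replication, 7 were lower and 2 higher, with a median difference of -0.21. Without mPGC-1α array 1 the median was 0.09, with 3 lower and 6 higher. Mcm5, a subunit of the Mcm2-7 helicase, had levels of -0.49, 0.30 and -0.29 in PGC-1αf/f and -1.74, 0.02 and -0.24 in mPGC-1α (difference -0.49, SE 0.44). Mcm2, a subunit of the same ring, had levels of -0.74, 0.36 and 0.09 in PGC-1αf/f and -1.49 and 0.16 on mPGC-1α arrays 1 and 2, with array 3 marked (difference -0.57, SE 0.51). Both were low on mPGC-1α array 1, and without it their differences were 0.05 and 0.26. The other Mcm genes lay between -0.55 for Mcm3 and 0.19 for Mcm7, which were -0.36 and 0.41 without that array. Cdc6, a loader of the helicase, lay at -0.15 by its brightest probe. A second, much dimmer Cdc6 probe differed by -1.18 (SE 0.66). It was lowest on mPGC-1α array 1, at -6.34, and differed by -0.33 without that array. Pcna, the sliding clamp of DNA polymerase, was steady, at 3.62, 4.02 and 3.79 in PGC-1αf/f and 3.97, 3.87 and 3.93 in mPGC-1α, a difference of 0.11 (SE 0.18). Cdc45, which activates the helicase at the fork, differed most in this group. Its levels were -0.96, -2.11 and -0.87 in PGC-1αf/f and -2.86, -1.97 and -2.29 in mPGC-1α. The difference was -1.06 (SE 0.39; limma unadjusted p = 0.0226, adjusted p = 0.684), and PGC-1αf/f array 2 lay among the mPGC-1α values.

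The genes of nucleotide supply were lower in the mean for all 4, with a median of -0.42 that became 0.07 without mPGC-1α array 1. Rrm2, the regulated subunit of ribonucleotide reductase, had levels of -0.81, 0.33 and -0.70 in PGC-1αf/f and -3.04, -0.25 and -0.93 in mPGC-1α, a difference of -1.01 (SE 0.64) that was -0.20 without that array. Tyms, thymidylate synthase, had levels of 0.52, 1.54 and 0.67 and then 0.39, 1.15 and 0.91, a difference of -0.10 (SE 0.31) that was 0.12 without it. Thus Rrm2 was far lower on mPGC-1α array 1 than anywhere else, whereas Tyms was barely so. Tk1, the S phase thymidine kinase, lay at -1.23 on that array and between 0.26 and 1.14 on the others, and its difference of -0.56 was 0.08 without it.

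All 8 mitotic cyclins and kinases, with Foxm1, were lower in the mean of mPGC-1α, and 7 of them were lowest on mPGC-1α array 1. Without that array their median was 0.05, with 3 lower and 5 higher. Ccna2 (cyclin A2) had levels of 0.68, 1.02 and 0.73 in PGC-1αf/f and -1.41, 0.55 and 0.59 in mPGC-1α. Its groups did not overlap, with a difference of -0.90 (SE 0.48; exact permutation p = 0.1; limma adjusted p = 0.724) that was -0.24 without mPGC-1α array 1. A second, dimmer Ccna2 probe, also without overlap, differed by -0.90 (limma unadjusted p = 0.0428, adjusted p = 0.690) and by -0.47 without that array. Ccnb1 (cyclin B1) had levels of -0.65, -1.84 and -0.64 in PGC-1αf/f and -1.89, -1.87 and -2.02 in mPGC-1α, a difference of -0.88 (SE 0.35; limma unadjusted p = 0.0301, adjusted p = 0.685). PGC-1αf/f array 2 lay just above the highest mPGC-1α array, so the groups separated by little. Cdk1, the mitotic kinase, had levels of -0.64, -0.95 and -0.85 in PGC-1αf/f and -0.86 and -0.68 on mPGC-1α arrays 2 and 3. On mPGC-1α array 1 its spot was not well above background (processed signal 1.70 against 366 to 754 elsewhere) and stood at -8.80. The difference of -2.63 (SE 1.77) thus rested on that spot and was 0.04 without it. Foxm1, a transcription factor of mitotic genes, had levels of -2.04, -1.29 and -2.04 and then -2.81, -1.70 and -1.50, a difference of -0.21 (SE 0.39). Aurka, a spindle pole kinase, had levels of -2.06, -1.22 and -2.25 and then -2.86, -1.47 and -1.84, a difference of -0.21 (SE 0.41). Without mPGC-1α array 1 the difference was 0.19 for both. The remaining kinases and cyclin of this group, Plk1, Aurkb and Ccnb2, differed by -0.37, -0.29 and -0.44, and by 0.47, -0.0026 and 0.06 without that array. A second, dimmer Aurkb probe differed by -1.40 (limma unadjusted p = 0.0202, adjusted p = 0.684), and by -1.13 without that array.

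The genes of chromosomes and spindle showed the drop on mPGC-1α array 1 most evenly. All 13 had a lower mean in mPGC-1α (median -0.65), and all 12 of those measured on every array were lowest on mPGC-1α array 1. Top2a, the topoisomerase that untangles chromosomes, had levels of -0.15, 0.70 and 0.22 in PGC-1αf/f and -1.86, 0.23 and 0.08 in mPGC-1α, a difference of -0.77 (SE 0.51) that was -0.10 without that array. A second, dimmer Top2a probe differed by -1.23 (SE 0.49; limma unadjusted p = 0.0336, adjusted p = 0.686). Its groups did not overlap, and it still differed by -0.56 without mPGC-1α array 1. Mki67, which encodes the proliferation antigen Ki-67, had levels of 1.35 and 2.66 on PGC-1αf/f arrays 1 and 2 and of -0.08 and 2.22 on mPGC-1α arrays 1 and 2, with array 3 of both groups marked as an outlier. Its difference was -0.93 (SE 0.74) without the marked spots, and 0.22 when mPGC-1α array 1 was left out as well. With them kept array 3 read 1.35 in PGC-1αf/f and 2.10 in mPGC-1α, and the difference was -0.37. Birc5 (survivin) had levels of 0.25, 1.67 and 0.49 in PGC-1αf/f and -0.67, 1.25 and 1.27 in mPGC-1α, a difference of -0.18 (SE 0.54) with wide overlap that was 0.46 without mPGC-1α array 1. Bub1b, a kinase-like protein of the spindle checkpoint, had levels of -1.27, -1.72 and -1.39 and then -2.28, -1.45 and -1.77, a difference of -0.38 (SE 0.29) that was -0.15 without it. Cdca8 (borealin), a partner of survivin at the centromere, had the smallest p of the members. Its levels were 0.26, -0.37 and 0.67 in PGC-1αf/f and -1.97, -0.56 and -0.80 in mPGC-1α. They did not overlap, with a difference of -1.30 (SE 0.40; limma unadjusted p = 0.0100, adjusted p = 0.684) that was -0.86 without mPGC-1α array 1. Over the whole group the median difference was -0.04 without that array, with 7 genes lower and 6 higher.

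The 2 genes of the APC/C parted. Ube2c, its ubiquitin-conjugating enzyme, had levels of 1.64, 2.86 and 1.83 in PGC-1αf/f and -5.20, 2.57 and 2.19 in mPGC-1α. The processed signal on mPGC-1α array 1 was 20.7, still well above background, against 3472 to 5145 on the other arrays. Its difference of -2.26 (SE 1.69; limma adjusted p = 0.789) became 0.27 without that array. Cdc20, the activator of the complex, had levels of 2.79, 3.58 and 3.04 in PGC-1αf/f and 3.14, 3.59 and 3.25 in mPGC-1α, a difference of 0.19 (SE 0.24). Cdc20 was thus not low on mPGC-1α array 1. The promoter segments shown for Cdc20 and Ube2c each held 1 CHR match and 2 CCAAT matches. In the longer promoter windows each had 1 CHR match, but Cdc20 had 2 CCAAT matches and Ube2c had 6. Whether the motifs had a part in the difference between these genes was not tested.

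Both inhibitors had a higher mean in mPGC-1α. Cdkn1a (p21) had levels of 1.19, 1.68 and 1.35 in PGC-1αf/f and 2.82, 2.16 and 1.44 in mPGC-1α. Its highest value was on mPGC-1α array 1, where most other members were lowest, and mPGC-1α array 3 lay within the PGC-1αf/f range. The difference was 0.73 (SE 0.33; exact permutation p = 0.2; limma unadjusted p = 0.0505, adjusted p = 0.698) and 0.39 without mPGC-1α array 1. A second, dimmer Cdkn1a probe had levels of -0.59, 0.05 and -0.61 in PGC-1αf/f and -0.02, 0.17 and -0.63 in mPGC-1α, a difference of 0.22. That probe was highest on mPGC-1α array 2, not on array 1. Cdkn1b (p27) had levels of 1.80 and 2.28 on PGC-1αf/f arrays 1 and 2 and of 2.31 and 2.65 on mPGC-1α arrays 1 and 2, a difference of 0.44 (SE 0.28) from 4 arrays. On mPGC-1α array 1 it lay 0.07 above the mean of the other measured arrays. With marked spots kept array 3 read 2.46 in PGC-1αf/f and 2.67 in mPGC-1α, the groups overlapped, and the difference was 0.36.

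**Figure D3:**
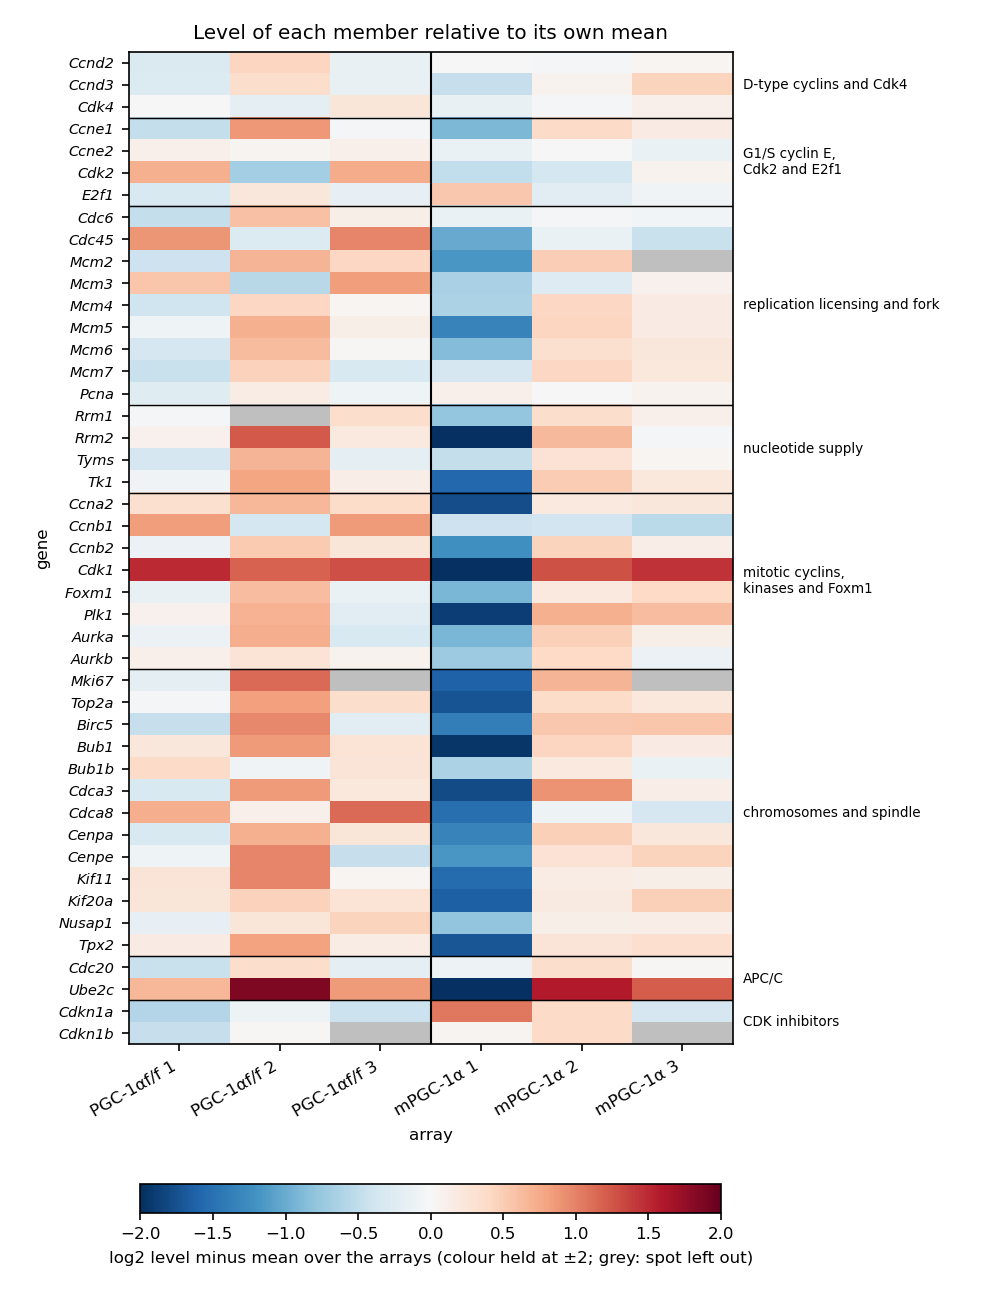
Log2 level of each tested member minus its own mean over the arrays, as colour, for the 45 genes (y axis, grouped by role) and the 6 arrays (x axis), with left-out spots in grey. The genes of chromosomes and spindle are blue on mPGC-1α array 1 in every row, and Cdkn1a is red there.

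The members with an unadjusted p below 0.05 also followed a second pattern of the arrays, and probes of the same gene differed in it. In this pattern PGC-1αf/f arrays 1 and 3 were both above the other 4 arrays, PGC-1αf/f array 2 among them. It held for 13 of 63 member probes (20.6%), from 11 genes, beside 13.8% of all probes measured on every array. It was found after the values were seen. Cdca8 and Cdc45 were also lowest on mPGC-1α array 1, by 1.17 and 0.57 below the next lowest array, so both patterns met in them. Ccnb1 shows both patterns in 1 gene. Its second probe had levels of -0.76, -2.13 and -0.92 in PGC-1αf/f and -2.33, -1.80 and -1.95 in mPGC-1α, much as the brightest one. Its remaining probe had levels of -2.08, -1.22 and -2.06 and then -3.98, -1.25 and -1.59, low on mPGC-1α array 1 alone. Both probes of Cdc45 followed the pattern of arrays 1 and 3, and the dimmer one differed by -1.64. For Cdca8 the second probe had levels of -0.81, 0.40 and -0.77 and then -2.13, -0.10 and -0.14, a difference of -0.39 in place of -1.30. The second Mcm6 probe differed by -1.24 and the brightest by -0.21. The correlation of those Mcm6 probes over the 6 arrays was -0.18, and that of the Mcm7 probes was -0.64. Of 19 members with more than 1 tested probe, 4 had probes of both signs (Ccnd2, Cdk4, Mcm3 and Mcm7).

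The test changed when PGC-1αf/f array 2 was left out. Then 3 members passed an adjusted p of 0.05 by limma, all lower in mPGC-1α, which is 6.67% of the members beside 2.93% of all genes. They were Ccnb1 (difference -1.28, limma adjusted p = 0.00981), Cdc45 (-1.46, adjusted p = 0.0301) and Cdk2 (-0.99, adjusted p = 0.0486). Over all probes 2073 passed without PGC-1αf/f array 2, 1946 of them lower and 127 higher, so the direction was not particular to the members. The sex-chromosome readings of that array also differed from those of the other 5, and their part in these calls was not tested.

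**Figure D4:**
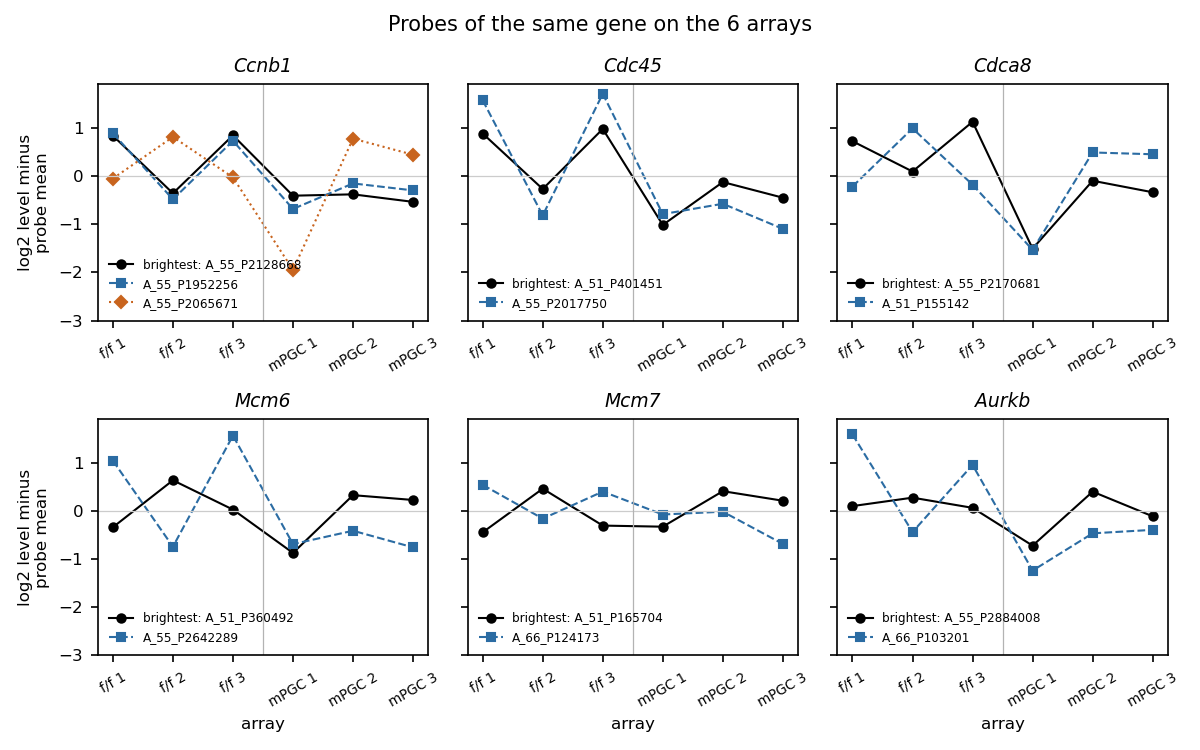
Log2 level minus the probe's mean (y axis) on PGC-1αf/f arrays (f/f) 1 to 3 and mPGC-1α arrays (mPGC) 1 to 3 (x axis) for each tested probe of 6 members. The brightest Ccnb1 probe is high on PGC-1αf/f arrays 1 and 3, while its dimmest probe is low on mPGC-1α array 1, at -3.98 before the mean is taken off.

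Other genes of the same processes were read for comparison. Among 45 other mitotic genes 37 were lower in mPGC-1α, with a median of -0.44 and -0.05 without mPGC-1α array 1. Of those measured on every array, 31 of 42 were lowest on mPGC-1α array 1, close to the share among the members. Of this list 3 genes had an unadjusted p below 0.05, all lower. They were Pbk (-1.21), a mitotic kinase, Ndc80 (-1.02), which ties the kinetochore to microtubules, and Racgap1 (-0.64), a protein of cytokinesis. As 3 of 45 this lay near the 6.09% of all genes, counted in either direction. Among 38 other S phase genes 25 were lower, with a median of -0.14, and 19 of 35 were lowest on that array. Without it the median was 0.06, with 14 lower and 24 higher. Pola1, the catalytic subunit of DNA polymerase α, was lower (-0.79) and Cdt1, a licensing factor, higher (0.50) at an unadjusted p below 0.05. No other gene of this S phase list reached that p, a share also near that of all genes. The difference between the S phase and mitotic counts was not tested. The 18 regulators of the E2F, DREAM and RB families had a median of -0.03, with Rb1 at -0.56. In the 15 constitutive APC/C subunits with Fzr1, 13 were higher and 0 of 14 were lowest on mPGC-1α array 1. The 15 other cyclin-dependent kinases and partners had a median of 0.08, with 2 of 13 lowest on that array. Among 15 antiproliferative genes besides Cdkn1a and Cdkn1b the median was -0.03. Among 17 tested p53 targets it was 0.07, with Ccng1, itself a p53 target, at -0.70. None of these genes passed the adjusted test.

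Levels of markers of other cells also shifted on mPGC-1α array 1. All 4 neutrophil markers measured on every array were lowest there, and 5 of 8 markers of monocytes and macrophages, 3 of 4 of erythroid cells and 4 of 5 of ependyma were. Of 10 listed neutrophil markers 6 were tested, and the sum of their linear levels (the processed signal as a multiple of the array's 75th percentile) was 39.4 on that array, 57.9 to 85.5 over the PGC-1αf/f arrays and up to 106 over the mPGC-1α arrays. Mpo and Elane, made by granulocyte precursors in the bone marrow, were at 0.81 and -1.67 on it, and at 2.84 or above and 0.41 or above on the others. Oligodendrocyte markers were highest there for 8 of 8 measured on every array, and the linear levels of the 10 tested ones summed to 44.2 beside 16.8 to 30.3 on the others. The same sum for 11 tested microglial markers stayed between 230 and 273. For 5 tested erythroid markers the sum was not lowest on mPGC-1α array 1. It was 75.9 there, 59.3 and 74.1 on PGC-1αf/f arrays 1 and 3, and 121 to 167 on the remaining arrays. Every tested marker of neutrophils, monocytes and macrophages, oligodendrocytes and microglia was well above background on mPGC-1α array 1. Markers of oligodendrocytes, neurons and astrocytes had higher means in mPGC-1α, with or without that array. The median difference was 0.87 for oligodendrocytes (0.52 without it), 0.80 for neurons (0.76) and 0.97 for astrocytes (1.24). Higher were 10 of 10, 9 of 10 and 7 of 7 tested markers, of which 4, 5 and 3 had an unadjusted p below 0.05 by limma and none passed the adjusted test. The part of these other cells in the movement of the cell cycle genes was not tested.

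**Figure D5:**
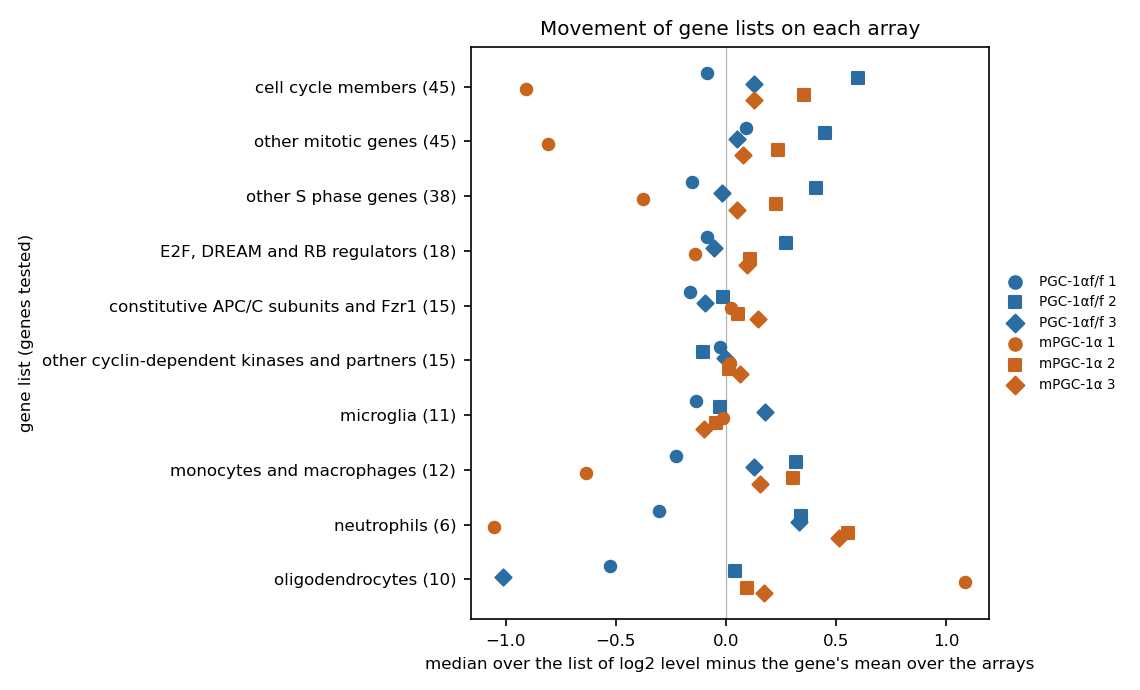
Median over each gene list of the log2 level minus the gene's own mean (x axis) for 10 lists (y axis, with the number of genes tested), with 1 point per array, PGC-1αf/f in blue and mPGC-1α in orange. The point of mPGC-1α array 1 lies lowest for the cell cycle members (-0.91), other mitotic genes (-0.81), monocytes (-0.64) and neutrophils (-1.05). It is also lowest, by less, for other S phase genes (-0.38) and for E2F, DREAM and RB regulators (-0.14), and is highest for oligodendrocytes (1.09).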

How the data were processed

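The deposited files give, for every spot, a linear intensity from Agilent Feature Extraction 11.5.1.1, background-subtracted within each array and not normalized between arrays. The labels disagree on the dye (Cy3 or Cy5), and the single green channel was used. Log2 values that the authors had normalized in GeneSpring, for 46731 of 56605 probes, served as an alternative.

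The log2 ratio of the processed signal to each array's 75th percentile was computed in R 4.3.3 with the package data.table, version 1.17.8. That percentile was taken over all probes other than controls. Between 91.6% and 96.0% of the spots marked as outliers lay above it, and leaving them out would have lowered it by 0.50 on mPGC-1α array 3 and by 0.03 to 0.25 on the others. Marked spots were left out of the values. A probe was tested if each group had at least 2 values and all unmarked spots of 1 group were well above background. Accessions named 33767 of 56605 probes (59.7%).

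Groups were compared by limma 3.58.1 (lmFit, then eBayes with trend, two-sided) on all 6 arrays, with Benjamini-Hochberg adjustment over 40745 probes and a threshold of 0.05. Single genes were also compared by a two-sided exact permutation test over 20 assignments. Arrays with the same replicate number deviated together from their group means (correlations 0.25, 0.22 and 0.17, against -0.34 to 0.04 for different numbers in the other group), so the fit with the number as a block is given where it changes a count. No label says what the number stands for, and array 3 of both groups also shared slide 2. These correlations come from the same values and do not show that the arrays were paired. The number of arrays limits the precision. Alternatives were quantile normalization, normexp (offset 50) with quantile normalization, the authors' values, other filters, the slide as a block, no intensity trend, marked spots kept, the mean of a gene's probes and each array left out.

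The members, role lists, pathway lists and markers were chosen with earlier results of these data known. Members named in full were those with an unadjusted p below 0.05 or without overlap, and 25 genes fixed by name. Motifs were counted in RefSeq promoter windows of GRCm38.p6.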

Additional observations from a re-analysis of the deposited data

How the results depend on the processing

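The median difference over the members stayed below 0 under every scaling, filter and covariate tried (between -0.43 and -0.29). Leaving out each array in turn gave -0.57 to 0.06, above 0 only without mPGC-1α array 1. The count of members without overlap was 2 in place of 4 under quantile normalization, normexp with quantile normalization, the authors' values and a 75th percentile over unmarked spots only, the last chosen after seeing the data. Leaving out each array gave 4 to 12 such members, 0 to 2073 probes and 0 to 3 members past an adjusted p of 0.05 by limma, and 1 to 11 members with an unadjusted p below 0.05. The highest of these counts came without PGC-1αf/f array 2, except that the 11 came without mPGC-1α array 2, which also gave 8 probes. Of the members, 7 had an unadjusted p below 0.05 without PGC-1αf/f array 2 and 1 without either other PGC-1αf/f array. Shares of all genes are not given for these counts without overlap or at an unadjusted p. The counts are therefore not results about the members. Groups with fewer arrays also separate more readily without overlap.

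With the replicate block 1 probe in place of 0 passed the adjusted test by limma, 11 members had an unadjusted p below 0.05, and no call of a member changed. The block and the percentile over unmarked spots were also combined, a choice made after seeing the data. Then 1720 probes and 3 members passed, 13 members had an unadjusted p below 0.05 and 2 did not overlap. Shares of all genes in that fit are not given, so its member counts are not results about the members. In that fit limma's prior degrees of freedom were 74.6, against 8.95 with the block alone, so a probe's own spread weighed less. Its calls included Cdk1 (-2.56, limma adjusted p = 0.00127), whose pairs of equal number differed by -8.16, 0.09 and 0.17, and Cdca8 (-1.22, adjusted p = 0.00689).

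Small differences changed sign. Under quantile normalization, normexp and the authors' values in turn, Ccnd2 was -0.053, -0.071 and -0.054, Ccnd3 was -0.055, -0.054 and -0.061, and Pcna was -0.024, -0.058 and -0.023. Cdk4 was 0.020 with the percentile over unmarked spots, with or without the block. With each array left out in turn, Mki67 ranged from -2.08 to 0.22, Cdk1 from -4.02 to 0.045, Ccnd2 from -0.14 to 0.22, Ccnd3 from -0.18 to 0.28, Cdk4 from -0.16 to 0.053 and Ccne1 from -0.52 to 0.17. Mcm2 ranged from -1.39 to 0.26, Mcm5 from -0.83 to 0.049, Tyms from -0.29 to 0.22, Aurka from -0.50 to 0.19, Birc5 from -0.51 to 0.46, Foxm1 from -0.46 to 0.19 and E2f1 from -0.063 to 0.32. The causes of these changes were not tested beyond the array left out.

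Cdk1 was measured above background on 5 of 6 arrays, and Mki67, Mcm2, Rrm1 and Cdkn1b lacked spots marked as outliers. With 3 arrays a group, 1 array can decide a mean.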
